A study of Mus musculus with 4 samples.

Results

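The genes described are Zscan4c, Zscan4d, Zscan4f, Tcstv1, Tcstv3, Zfp352, Dppa2, Dppa3 and Dppa4, 9 of the 24421 genes in the count files, and they were chosen by symbol as genes of the 2-cell-like state and of the developmental pluripotency associated (Dppa) group. All 9 had a count, and 7 of them reached a mean of 5 normalized counts over the libraries. The study followed R1 cells, an established line of mouse embryonic stem cells (ESCs), through differentiation with retinoic acid (RA), and 4 Illumina TruSeq libraries were analysed here. Undiff had 2 replicates, which the methods describe as ESCs maintained with leukaemia inhibitory factor (LIF), whereas the labels describe embryoid bodies. Day4 had 2 replicates of embryoid bodies, kept for 4 days without LIF and then for 4 days with RA, at 2 µM in the design text and at 2 mM in the treatment label. Both states came from the same line, for which the labels name no genetic change. The loss of LIF, the age of the aggregates and RA differ together between the states and cannot be told apart, and no RA-free sample of the same age was analysed here.

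A small and changing share of mouse ESCs passes through a state that resembles the 2-cell embryo, the stage at which the mouse genome is first transcribed in earnest. Cells in it transcribe the Zscan4 cluster, which encodes SCAN-domain zinc finger proteins with a role in telomere maintenance, together with Tcstv1 and Tcstv3, the 2-cell-stage variable group genes, and Zfp352, a zinc finger gene of the early embryo. Dppa2 and Dppa4 are SAP-domain chromatin proteins that act as a pair upstream of Dux and of many genes of that state, but ESCs as a whole express them. Dppa3, also called Stella, is a maternal factor that protects DNA methylation in the zygote and is a marker of naive ESCs and of primordial germ cells.

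The members of the Zscan4 cluster are near copies, which bears on every count given for them. In GRCm38, Zscan4c lies on chromosome 7 from 11005745 to 11010547 on the plus strand, Zscan4d from 11161374 to 11166159 on the minus strand, and Zscan4f from 11397915 to 11402318 on the plus strand. A block of 216 bases upstream of their starts was found in all 3 genes and is shown, since it shows how alike the copies are. Reference sequence of RefSeq (GRCm38.p6) is given, and capitals mark the 7 positions at which the 3 blocks were not all the same.
Zscan4c, chr7:11005506-11005721, plus strand, ending 23 bases before the RefSeq start: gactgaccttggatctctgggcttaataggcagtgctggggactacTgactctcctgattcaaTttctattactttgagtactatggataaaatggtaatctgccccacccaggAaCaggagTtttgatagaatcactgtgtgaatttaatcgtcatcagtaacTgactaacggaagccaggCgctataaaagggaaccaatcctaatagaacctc
Zscan4d, chr7:11166183-11166398, minus strand, ending 34 bases before the RefSeq start: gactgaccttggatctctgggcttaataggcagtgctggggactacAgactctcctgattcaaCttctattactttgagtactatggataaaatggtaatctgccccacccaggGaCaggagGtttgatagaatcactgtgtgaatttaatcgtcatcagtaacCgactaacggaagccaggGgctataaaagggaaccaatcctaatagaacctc
Zscan4f, chr7:11397699-11397914, plus strand, ending at the RefSeq start: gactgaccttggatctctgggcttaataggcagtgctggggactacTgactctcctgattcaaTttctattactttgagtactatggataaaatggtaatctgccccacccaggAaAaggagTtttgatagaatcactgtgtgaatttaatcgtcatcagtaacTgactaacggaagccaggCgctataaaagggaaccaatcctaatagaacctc

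Zscan4c and Zscan4f were identical at 215 of the 216 bases (99.5%), Zscan4c and Zscan4d at 210 (97.2%), and Zscan4d and Zscan4f at 209 (96.8%). The letters TATAAA, the core of a TATA box, stood near the 3′ end of each block, 54 bases before the RefSeq start of Zscan4c, 65 before that of Zscan4d and 31 before that of Zscan4f. Searched on both strands, these letters were in 4473 of all 32851 RefSeq promoters of 300 bases (13.6%). The octamer ATGCAAAT, a site of POU factors such as Oct4, was in 570 promoters (1.74%) and in none of the 4 promoters of members in that table, those of the 3 Zscan4 genes and of Zfp352. These 4 promoters held between 2 and 4 CpG dinucleotides, against a median of 7 over all promoters.

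Zfp352, on chromosome 4 from 90218820 to 90225702 on the plus strand, is shown for a different feature, a short repeat directly upstream of its start. The sequence is that of RefSeq (GRCm38.p6), and capitals mark the letters CAACACAC, which were picked after the sequence was seen.
Zfp352, chr4:90218670-90218819, plus strand, ending at the start: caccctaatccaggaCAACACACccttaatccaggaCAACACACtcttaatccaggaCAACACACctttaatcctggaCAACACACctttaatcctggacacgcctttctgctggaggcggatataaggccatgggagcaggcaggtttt
The repeat occurred 9 times in the 250 bases before the start of Zfp352, and it occurred 3 or more times in no other promoter of the table.

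How much of each transcript is its own was measured as the share of windows of the length of a read that matched no other annotated gene exactly. The share was 27.4% in Zscan4c and 19.5% in Zscan4f but 70.8% in Zscan4d. Of the windows of Zscan4c, 55.1% were also in Zscan4f, and 67.3% of those of Zscan4f were also in the pseudogene Zscan4-ps2. The 2 other Zscan4 genes that were counted, Zscan4a and Zscan4b, had shares of 61.2% and 24.0%. Dppa2 shared 22.8% of its windows with Gm9788 and Dppa4 shared 13.1% with Gm14058, neither of which has a line in the count files, and all windows of Dppa3 were its own. Tcstv1, Tcstv3 and Zfp352 had shares of 92.3% to 99.4%. Since the authors kept unique alignments, fragments of Zscan4c, Zscan4f and Zscan4b that match several copies were left out, and the counts of these genes are low. A fragment has 2 mates and is placed if either is unique, so that the shares do not give the size of the loss.

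**Figure D1:**
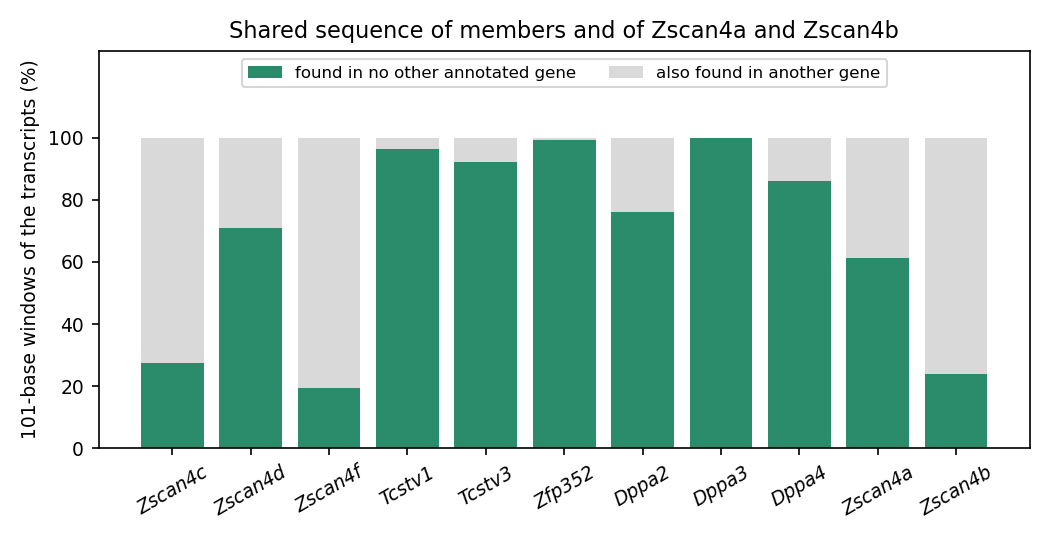
Share of the read-length windows of each gene's transcripts, in percent on the vertical axis, that matched no other annotated gene (green) or matched at least 1 other (grey), for the 9 members and for Zscan4a and Zscan4b. Zscan4f (19.5%), Zscan4b (24.0%) and Zscan4c (27.4%) have the smallest share of their own, and Dppa3 has 100%.

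The libraries held between 32099074 and 47730944 fragments on genes, so that 3 counts, taken as the floor of detection, stood for 0.0629 to 0.0935 counts per 1000000 fragments on genes (CPM). Of the 15 pluripotent cell markers, 13 were lower in Day4, with Pou5f1 (Oct4) at 31670 ± 443 (SD, n = 2) normalized counts in Undiff and 136 ± 8.16 in Day4. Values below are normalized counts, that is counts scaled to a common library size. Differentially expressed genes (DEGs) are those with adjusted p-values up to 0.05 in edgeR's quasi-likelihood test over all genes with a count, with log2 fold changes of 1 or more in size and with means of 5 or more normalized counts.

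Of the 9 members, 7 were DEGs that fell in Day4. The exceptions were Tcstv1 and Zfp352, whose means were under 5 normalized counts. None was higher. Over the 19891 genes tested, 20.6% were DEGs lower in Day4 and 22.2% were DEGs higher in Day4. Zscan4f and Tcstv3 reached the minimum mean only through their Undiff libraries, as did 1077 of the 4101 DEGs lower in Day4 over all genes, and such a gene had to be lower in Day4 to be counted. These are bulk libraries, in which fewer cells of a kind and less RNA per cell cannot be told apart.

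**Figure D2:**
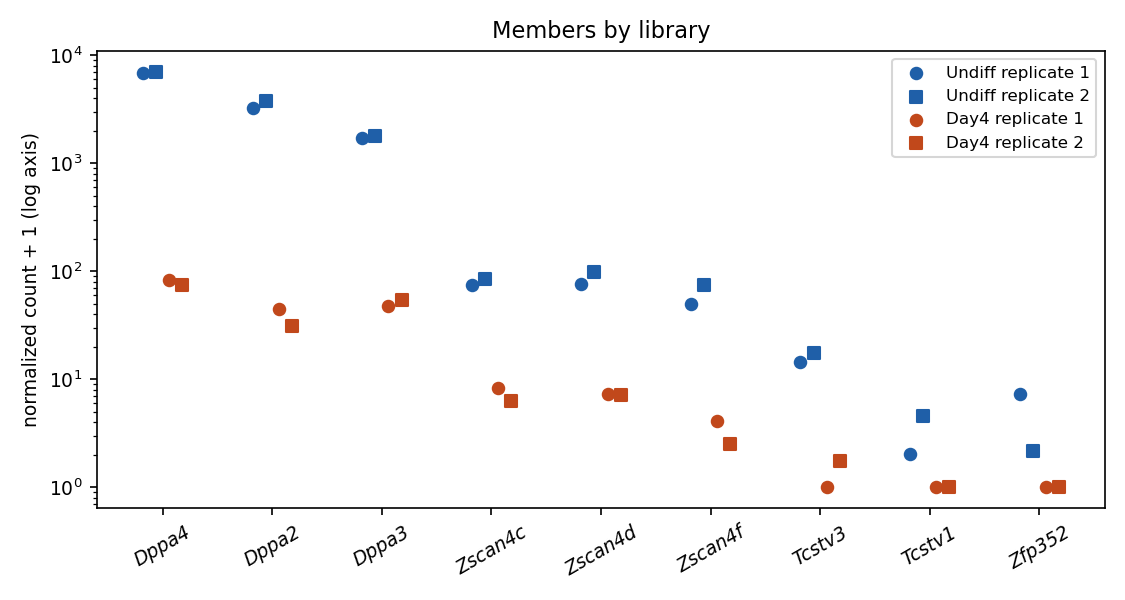
Normalized counts of the 9 members in each of the 4 libraries, plotted as normalized count + 1 on a logarithmic axis, with circles for replicate 1 and squares for replicate 2. Undiff points are blue and Day4 points are orange, and Tcstv1 and Zfp352 had a count of 0 in both Day4 libraries.

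Dppa4, on chromosome 16 from 48283733 to 48294237 on the plus strand, was the most abundant member in Undiff. It had 6869 and 7077 normalized counts in the Undiff libraries and 81.5 and 74.5 in the Day4 libraries. Both replicates of a state were close, and Day4 held 1.12% of the Undiff level. The log2 fold change was -6.49 ± 0.07 (SE), with an adjusted p of 5.401e-16 in edgeR's quasi-likelihood test.

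Dppa2, its partner, starts 20.2 kb away on the same strand (48303908 to 48319723). Its normalized counts were 3262 and 3794 in Undiff, against 43.9 and 29.9 in Day4. The second Undiff replicate was 1.16 times the first, a ratio whose 95% counting interval (1.11 to 1.22) does not hold 1, and both stood far above Day4, which held 1.05% of the Undiff level. The log2 fold change was -6.61 ± 0.13 (edgeR adjusted p = 4.328e-14). Within a library, the number of Dppa2 fragments per Dppa4 fragment was 0.475 and 0.536 in Undiff and 0.538 and 0.402 in Day4, so that the states overlapped in this ratio.

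Dppa3, on chromosome 6 from 122626410 to 122630272 on the plus strand, had the smallest change of the 3 Dppa genes. Its normalized counts were 1722 and 1804 in Undiff, against 47.0 and 53.7 in Day4, which is 2.86% of the Undiff level. The log2 fold change was -5.11 ± 0.10 (edgeR adjusted p = 3.845e-14). Dppa3 was 34.6-fold higher in Undiff (95% counting interval of the summed counts 28.7 to 42.0), against 97.9-fold (78.7 to 123.5) for Dppa2 and 90.0-fold (77.5 to 105) for Dppa4, and the interval of Dppa3 overlaps neither of the others. Leaving out each library in turn gave -5.25 to -5.03 for Dppa3, against -6.87 to -6.35 for Dppa2 and -6.55 to -6.45 for Dppa4. Dppa3 had 0.251 and 0.255 fragments per Dppa4 fragment in the Undiff libraries and 0.577 and 0.722 in the Day4 libraries. These ratios, which do not depend on the scaling, did not overlap between the states, and the exact two-sided permutation test gave p = 0.333, the smallest that 2 libraries against 2 allow. Dppa3 per Dppa2 fragment was 0.528 and 0.476 in Undiff and 1.07 and 1.79 in Day4, with the same p in the exact permutation test.

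Zscan4c had 74.0 and 83.8 normalized counts in the Undiff libraries and 7.31 and 5.37 in the Day4 libraries, from raw counts of 71, 70, 7 and 7. Its log2 fold change was -3.64 ± 0.32, and Zscan4c was 12.7-fold higher in Undiff (95% counting interval of the summed counts 7.31 to 23.8). Zscan4d, the copy with the most sequence of its own of the 3, stood at 75.0 and 98.1 in Undiff, against 6.27 and 6.14 in Day4. It gave -3.77 ± 0.33 and 13.9-fold (8.01 to 25.9), close to Zscan4c. Zscan4f had 49.0 and 74.2 in Undiff and 3.13 and 1.54 in Day4, where its raw counts were 3 and 2. It gave -4.70 ± 0.48 and 27.4-fold (11.4 to 86.2), an interval that overlaps those of the other copies. The adjusted p in edgeR's test was 1.957e-07 for Zscan4c, 1.964e-07 for Zscan4d and 8.634e-07 for Zscan4f.

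The second Undiff replicate of Zscan4f was 1.51 times the first, with a 95% counting interval (1.02 to 2.26) that barely leaves out 1. Such intervals were made for many genes and states without adjustment for their number, so that counting error alone can make some miss 1. The ratio was 1.13 (0.802 to 1.60) for Zscan4c and 1.31 (0.941 to 1.82) for Zscan4d, and both intervals hold 1. Summed over the 5 counted Zscan4 genes, which is less open to the placing of fragments among the copies, the libraries had 8.34 and 9.94 CPM in Undiff and 0.658 and 0.461 CPM in Day4. The sum was 17.1-fold higher in Undiff. It includes Zscan4a, which GENCODE annotates as an unprocessed pseudogene. It lacks Zscan4e, which was not among the genes counted and holds 75.2% of the windows of Zscan4b. Zscan4c, Zscan4d and Zscan4f together had 0.0288 and 0.0362 fragments per Dppa4 fragment in Undiff and 0.205 and 0.175 in Day4, without overlap (exact two-sided permutation p = 0.333, the smallest possible).

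Tcstv3, on chromosome 13 from 120316878 to 120318178 on the plus strand, was covered by 13 and 14 fragments in the Undiff libraries but by 0 and 1 in the Day4 libraries, or 13.55 and 16.75 against 0 and 0.768 normalized counts. It fell with a log2 fold change of -4.74 ± 0.84 (edgeR adjusted p = 0.0001127). With 1 fragment in Day4 the summed ratio was 34.0 with a counting interval of 5.60 to 1391, so that the size of the fall is hardly bounded from above. Tcstv1, on the same chromosome from 119893388 to 119894785 on the minus strand, was covered by 1 and 3 fragments in Undiff and by none in Day4. It was at or under the floor in both states, and no fold is given. Zfp352 had counts of 6 and 1 in Undiff and none in Day4, so that its level rests mostly on the first Undiff library, and its lower value in Day4 was not a DEG.

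**Figure D3:**
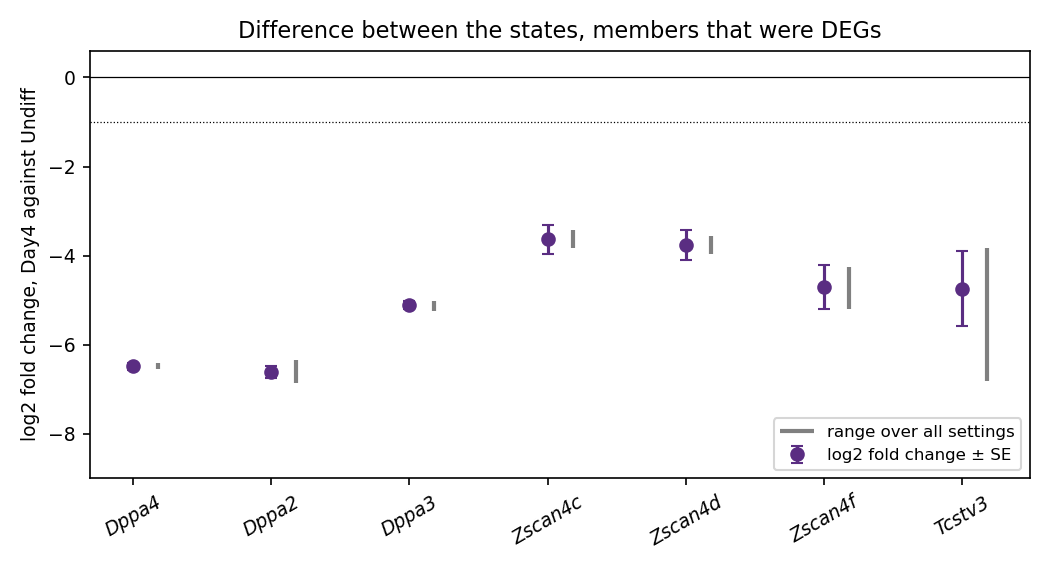
Log2 fold change of Day4 against Undiff for the 7 members that were DEGs, with its SE from edgeR, beside the range of that value over the alternative settings and left-out libraries (grey bars). Dppa2 and Dppa4 lie lowest, the Zscan4 genes between -3.64 and -4.70, and the range is widest for Tcstv3, which had 1 fragment in Day4.

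Per kilobase of annotated exon, the order of the normalized levels in Undiff was Dppa4 (4200 ± 88.5, SD, n = 2), Dppa3 (1980 ± 65.7), Dppa2 (1440 ± 154), Zscan4d (38.1 ± 7.18), Zscan4c (34.7 ± 3.03), Zscan4f (31.4 ± 9.10), Tcstv3 (19.4 ± 2.91), Tcstv1 (1.66 ± 1.29) and Zfp352 (1.64 ± 1.57). The 3 Zscan4 genes did not differ from each other beyond the spread of their replicates, and neither did Tcstv1 and Zfp352. The order within the Zscan4 genes turned round when only windows found in no other gene were counted as length, a setting chosen after the data were seen: Zscan4f then came first with 165 ± 47.7 per kilobase, Zscan4c next with 132 ± 11.6 and Zscan4d last with 56.3 ± 10.6. Dppa2 and Dppa3 changed places per kilobase of coding sequence, at 3910 ± 417 and 3460 ± 115.

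Set among the 19115 genes with a count and an annotated length, Dppa4 stood at percentile 98.1 of the level per exon kilobase in Undiff, Dppa2 at 92.7 and Dppa3 between them, whereas the Zscan4 genes stood between 41.1 and 43.0 and Tcstv3 at 36.7. In Day4 the Dppa genes stood between percentiles 35.2 and 45.6 and the Zscan4 genes between 17.5 and 22.9. The percentiles of the Zscan4 genes, and their part of the members' fragments, read low. Fragments that match several copies were left out, but the full exon length was used. In Day4 the order at the top differed, with Dppa3 at 56.5 ± 5.34 normalized counts per exon kilobase, Dppa4 at 46.9 ± 2.98 and Dppa2 at 15.1 ± 4.03. The 3 Dppa genes held 98.2% and 97.9% of the fragments of all 9 members in the Undiff libraries and 91.2% and 92.0% in the Day4 libraries.

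The levels of other cell types' markers moved between the same libraries, and their part in the results was not tested. The summed level of the 15 pluripotent cell markers was 4680 and 4700 CPM in Undiff and 85.1 and 83.1 CPM in Day4, beside 310 and 330 against 4.72 and 4.32 CPM for Dppa2, Dppa3 and Dppa4 together. Of the 8 fibroblast markers 7 rose in Day4 (from 67.9 and 63.5 to 1910 and 1750 CPM in sum), as did 8 of 9 extraembryonic endoderm markers (115 and 133 to 684 and 678 CPM) and 5 of 8 mesoderm markers (12.5 and 12.8 to 323 and 331 CPM). Against these lists, Thy1 (log2 fold change -3.81), Lama1 (-2.34), Hand1 (-1.86) and T (-5.78) fell, and among the pluripotent cell markers Tbx3 rose (1.31). The Day4 sum of the endoderm markers rests mostly on Gata4 and Gata6, at 9621 ± 131.5 and 10320 ± 354.5 normalized counts. Foxa2, Afp and Ttr, named here after their values were seen, had Day4 means between 51.8 and 61.5. Of the 8 neural markers 2 rose and 4 fell, with 325 and 331 CPM in Undiff and 148 and 159 CPM in Day4. Of the 6 counted genes of RNA quality and dissociation 1 rose and 2 fell, with 332 and 323 CPM in Undiff and 218 and 227 CPM in Day4.

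Germ cell markers were looked at beside Dppa3, since primordial germ cells express it. Of 9 markers, 7 fell and 1 rose, and their sum was 173 CPM in both Undiff libraries and at most 108 CPM in Day4. With library totals, 6 were DEGs lower in Day4. The remaining marker, Nanos3, was not a DEG, at 60.1 ± 21.6 (SD, n = 2) normalized counts in Undiff and 63.0 ± 6.41 in Day4. Tfap2c, a transcription factor of germ cell specification, fell from 1146 ± 44.1 (SD, n = 2) to 48.3 ± 3.33 normalized counts (log2 fold change -4.55), and Prdm1 from 785 ± 6.49 to 257 ± 29.6. Kit, a receptor that many other cells use as well, fell from 2513 ± 77.8 to 1253 ± 31.6, only just past the minimum fold change. Itgb3, an integrin subunit of many cell types, rose from 248 ± 2.56 to 2048 ± 232 normalized counts. The summed level of the germ cell markers in Day4 rests mostly on Itgb3 and Kit.

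Other genes transcribed at the 2-cell stage were examined as a list. Of 76 listed genes, 59 were in the files, 40 had a count and 26 reached a mean of 5 normalized counts. Of the 40, 22 were DEGs lower in Day4 and 2 were higher, and the median log2 fold change was -3.52, against -0.03 over all genes tested. Over the 34 genes above the floor in a state, with those at 0 in the other state set to their bound, the median was -3.01. Of the 22 that fell, 19 had a Day4 mean under 5 normalized counts and reached the minimum only through Undiff. The median level of the list was 19.1 normalized counts in Undiff and 1.29 in Day4, but its summed level was 59.8 and 66.2 CPM in Undiff against 60.8 and 60.9 CPM in Day4. The sum rests on a few abundant genes, named here after their values were seen: Pramef8, of the PRAME family, was at 1048 ± 66.8 and 1375 ± 34.1 normalized counts, and Ddit4l, a relative of the stress gene Ddit4, at 311 ± 1.98 and 228 ± 10.3, neither of them a DEG. Zscan4a, a further copy, fell from 102.8 ± 6.88 to 4.29 ± 2.80 normalized counts (log2 fold change -4.64 ± 0.35). Zfp750, a zinc finger gene best known from skin, fell from 197 ± 25.6 to 39.6 ± 6.05 normalized counts, Gm5662 from 80.8 ± 12.6 to 7.14 ± 4.67 and Gm8300 from 71.5 ± 27.5 to 4.64 ± 2.13.

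The 2 genes of that list that rose are used widely outside the early embryo. Snai1, a transcription factor of epithelial-to-mesenchymal transition, rose from 63.2 ± 16.7 to 491 ± 49.1 normalized counts (log2 fold change 2.95 ± 0.15), and Arg2, the mitochondrial arginase, from 12.4 ± 2.78 to 37.2 ± 0.532. Dux, the factor that switches on many genes of the 2-cell stage, was covered by 2 fragments in each Undiff library and by 1 and 0 in the Day4 libraries, at or under the floor in both states. A difference in Dux was therefore not detectable at this depth. Dux also lies in a tandem array of near copies, and fragments that match several copies were left out.

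Genes reported to be controlled by Dppa2 and Dppa4, or to work with Dppa3 in DNA methylation, formed a list of 15. Of these, 12 fell, 3 of them with a Day4 mean under 5 normalized counts, and 1 rose, with a median log2 fold change of -3.62. Over all genes tested, 20.6% were DEGs lower in Day4. Ddx4 and Dazl are also among the germ cell markers and Dnmt3b among the pluripotent cell markers. Uhrf1 and Dnmt1 are also on the list of repressors of the 2-cell-like state. Morc1, an ATPase that silences transposons in the germ line, stood at 3235 and 3634 normalized counts in the Undiff libraries and at 39.7 and 29.2 in the Day4 libraries (log2 fold change -6.67 ± 0.12). Mael, Ddx4, Dazl, Sycp3, Syce1 and Tex101, genes of the germ line and of meiosis, and Slc25a31, an ADP/ATP carrier of the testis, fell, with log2 fold changes from -5.50 to -2.84. Their values in Day4 included 71.3 ± 12.1 normalized counts for Ddx4 and 46.1 ± 1.21 for Sycp3. Nkx2-5 was covered by 4 fragments or fewer in every library.

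Among the methylation genes of that list, Dnmt3l, the cofactor of the de novo DNA methyltransferases, fell from 12800 ± 332 to 3.63 ± 0.783 normalized counts in Day4, where its raw count was 4 in each library (log2 fold change -11.77). Dnmt3b, a de novo DNA methyltransferase, went from 18590 ± 756 to 470 ± 1.68. Uhrf1, which brings the maintenance enzyme to DNA and is bound by Dppa3, fell with a log2 fold change of -1.34 ± 0.04. Dnmt1, that maintenance enzyme, was at 13590 ± 108 and 8531 ± 292, which is under the minimum fold (-0.67 ± 0.04). Ipo5, a nuclear import receptor, fell from 46600 ± 186 to 15460 ± 765 normalized counts. Tet3, the dioxygenase that oxidizes methylated cytosine in the zygote, rose from 584 ± 33.4 to 4858 ± 178 (3.06 ± 0.06).

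The medians of the regulators of the 2-cell-like state lay nearer to 0 than that of the 2-cell-stage genes. Of 12 listed positive regulators 10 were in the files and had a count, Dux among them. Of these, 3 fell, none rose, and the median log2 fold change was -0.58, or -0.52 over the 9 above the floor. Zscan10, a zinc finger gene of ESCs, went from 3696 ± 139 to 160 ± 8.32 normalized counts, Top2a, a topoisomerase of dividing cells, from 58780 ± 953 to 23670 ± 1161, and Sp110, a nuclear body gene that is also on the list of 2-cell-stage genes, from 29.0 ± 1.26 to 0.768 ± 1.09.

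Of 28 repressors of the state, all of them counted, 10 fell and 2 rose, with a median log2 fold change of -0.48. With library totals, 8 were DEGs lower in Day4. Zfp42 (Rex1), also a pluripotency marker, fell by 8.24 on the log2 scale, and Rif1, a telomere and replication timing factor, fell by 2.35. Ncl (nucleolin) fell by 1.44, and Trim28, a corepressor of retroviral elements, by 1.02, close to the threshold of 1. E2f6 and Ring1, parts of a variant Polycomb complex, rose with log2 fold changes of 1.44 ± 0.05 and 1.81 ± 0.09. The parts of that complex did not move together. L3mbtl2 (-2.33), Pcgf6 (-1.63), Mga (-1.14) and Rybp (-1.03) fell, the last of them close to the threshold, and Max (-0.10) and Rnf2 (0.72) were not DEGs. In all, 16 of the 28 repressors were not DEGs, Max and Rnf2 among them. Of these 16, 9 would have counted as lower and 5 as higher without a minimum fold change.

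**Figure D4:**
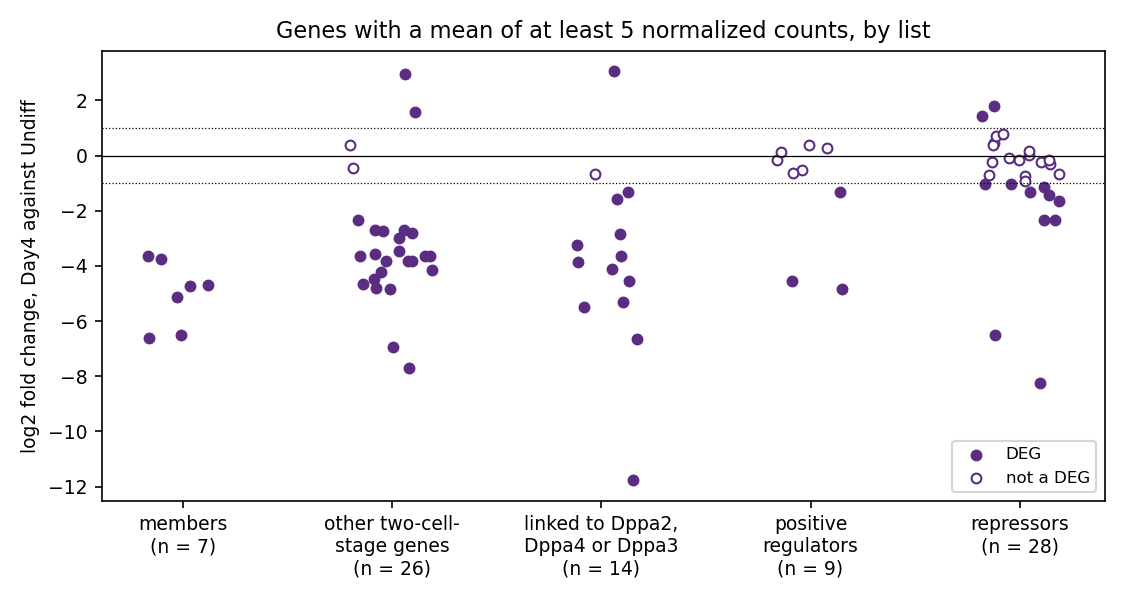
Log2 fold change of Day4 against Undiff for each gene with a mean of at least 5 normalized counts, for the members and 4 lists of related genes (filled for DEGs, open for others, spread sideways to be seen, dotted lines at the thresholds of -1 and 1). Genes without a fragment in Day4 are drawn at their fitted value. All 7 members shown lie below -3, and 16 of the 28 repressors lie between the thresholds, but 2 of the 7 members and 19 of the 22 2-cell-stage genes that fell are in the plot only through their Undiff level, whereas every repressor had a Day4 mean of 78.4 or more.

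The members' surroundings were described by counts, with gene bodies of GENCODE within 100 kb taken as neighbours. Of the 11 such genes reported here that are not members, 10 had a count, 6 were DEGs lower in Day4 and none was higher. The 5 of these around Dppa3 all fell, and several are genes of ESCs. Nanog, a core pluripotency factor, fell from 8735 ± 450 to 103 ± 17.2 normalized counts (log2 fold change -6.43 ± 0.08), and Gdf3, a TGF-beta ligand, from 4257 ± 71.1 to 12.3 ± 3.28 (-8.46 ± 0.11). Slc2a3, a glucose transporter, went from 66190 ± 9438 to 3713 ± 34.6 (-4.16 ± 0.08). Apobec1, a cytidine deaminase that edits messenger RNA, fell from 609 ± 32.0 to 28.0 ± 7.09, and Mfap5, a microfibril protein, from 221 ± 17.8 to 6.07 ± 1.19. Dppa3, at -5.11, lay within the range of these neighbours. The sixth, AF067061, lies near Tcstv3 and fell from 23.6 ± 3.88 to 2.09 ± 2.96. AF067061 is also on the list of 2-cell-stage genes and reached the minimum mean only through Undiff.

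**Figure D5:**
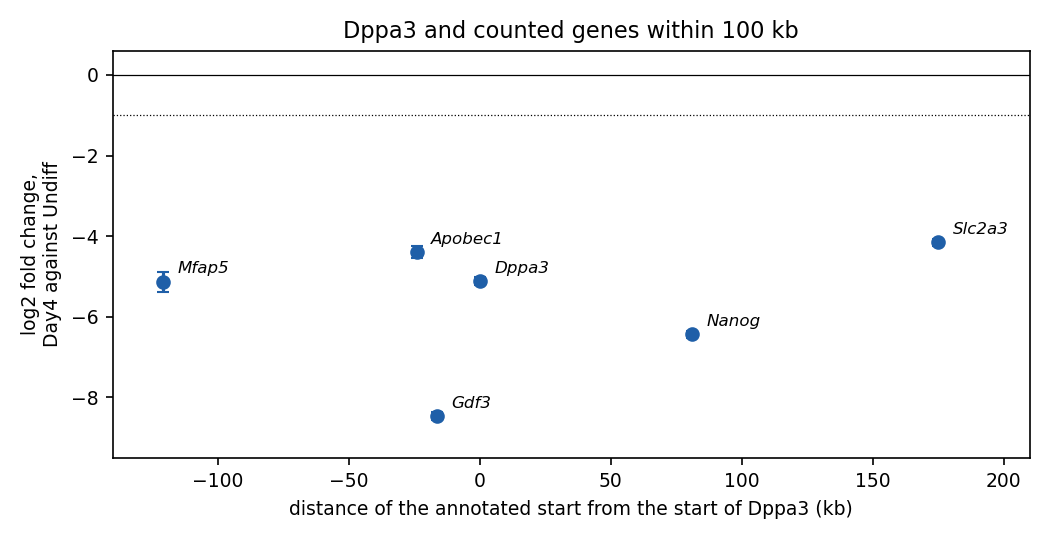
Log2 fold change of Day4 against Undiff, with its SE, for Dppa3 and 5 counted genes whose bodies lie within 100 kb of it, placed by the distance of their annotated start from that of Dppa3 in kilobases. All 6 points lie below -4, from -4.16 for Slc2a3 to -8.46 for Gdf3.

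Finally, the genes whose pattern over the 4 libraries was most like that of a member were sought among 15584 genes with a mean of at least 10 normalized counts, by the distance of centred log2(CPM + 0.1) values. Over 4 libraries in 2 states this mostly matches the size of the fall after 0.1 CPM is added, and it is a description. The nearest genes to Dppa2 were Morc1 (distance 0.0912), Tex19.1, another gene of transposon control in the germ line (0.0965), and Myo1g, a myosin (0.158). Tex19.1 averaged 3377 normalized counts in Undiff against 32.8 in Day4. Those nearest to Dppa4 were Ly6g6e (0.080), the X-linked tumour antigen gene Trap1a (0.105) and Lrrc2 (0.134), and those nearest to Dppa3 were Bcat1, an aminotransferase of branched-chain amino acids (0.0806), Eppk1 (0.0834) and E330020D12Rik (0.0906). The added 0.1 CPM enters the distance wherever a gene is rare in Day4. E330020D12Rik, with 1.29 normalized counts in Day4, had a log2 fold change of -6.85, against -5.11 for Dppa3. The nearest to Zscan4c was Aqp3, a water and glycerol channel, at 413 against 46.1 normalized counts. The 3 nearest to Zscan4d (Acsbg2, Gstt4 and Kcns2) had no fragment in Day4, and the 3 nearest to Zscan4f were 4930519F16Rik, Cabp4 and Mir6385.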

How the data were processed

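RNA of R1 ESCs was sequenced as paired fragments. The authors removed adapters (cutadapt), aligned to mm10 (STAR 2.4.2a) and counted unique alignments (htseq-count). The deposited values are raw counts of fragments per gene symbol. The labels name a TruSeq RNA kit and a strand-specific RiboZero kit, and per the methods the gene counts took strandedness into account, with the option named for ONT Direct RNA and not for TruSeq. Groups came from the titles.

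Counts were scaled by TMM and tested with edgeR 4.0.16 in R 4.3.3 (glmQLFit with its newer dispersion estimate, glmQLFTest) on all 4 libraries, with Benjamini-Hochberg adjustment over 19891 genes. An SE is the log2 fold change divided by the square root of F. Alternatives were DESeq2 1.42.0, other scalings, filters, a replicate block and left-out libraries. Counting intervals (95%, exact) cover counting error only. Positions and lengths are from GENCODE vM21 (GRCm38). According to the methods the replicates were separate cultures.

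The members and lists were chosen with earlier results of these data known. Named were all members, the 4 most abundant DEGs of each related list and up to 3 that moved the other way, DEGs among neighbours (1 neighbour is not reported here), and the 3 nearest profiles. For marker lists fewer are named. The germ line genes beside Morc1, Dux, Dnmt1, Nkx2-5, Nanos3, Tle6, Nlrp5 and the Polycomb parts other than E2f6 and Ring1 were added after their values were seen.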

Additional observations from a re-analysis of the deposited data

How the results depend on the processing

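The count of members that were DEGs lower in Day4 stayed at 7 under DESeq2 with and without a prior, DESeq2 size factors, library totals, a filter on low counts, the older dispersion estimate (added after seeing the data), no minimum fold change and each left-out library, where the lone replicate is assumed to vary like the other state, and it was 9 with no minimum mean count. Then Tcstv1 and Zfp352 passed as well in edgeR, at fitted values of -4.25 (adjusted p = 0.0469) and -5.03 (adjusted p = 0.0133). With no fragment in Day4 these depend on the prior count and are neither measured folds nor bounds. Their adjusted p ranged over the alternatives from 0.0278 to 0.253 for Tcstv1, over 0.05 with DESeq2 (0.253), library totals (0.0518), the older dispersion estimate (0.0974) and without the second Undiff (0.202) or either Day4 library (0.0865 and 0.124), and from 0.00432 to 0.188 for Zfp352, over 0.05 with DESeq2 (0.107, or 0.1 without a prior) and without the first Undiff library (0.188). The filter removed both. Without a minimum fold change, 7004 of all genes were lower and 7305 higher, and among the repressors 19 were lower and 7 higher. With the replicate block, Dppa2 had a log2 fold change of -6.63 and no call of a member changed, with 4101 of all genes lower and 4414 higher. The differences between replicates correlated between the states at -0.0166 over 14643 genes. No shared replicate effect was seen, but this cannot show whether the libraries were made as pairs. Leaving out each library gave -3.84 to -3.43 for Zscan4c, -3.96 to -3.57 for Zscan4d, -5.20 to -4.25 for Zscan4f and -6.81 to -4.09 for Tcstv3, whose value without the second Day4 replicate is set by a state at 0. The median of all genes lay between -0.104, without the second Day4 replicate, and 0.039, with library totals. Depth limits Tcstv1, Zfp352, Dux and the Day4 values of the Zscan4 genes.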

Other observations

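Other genes with a Dppa name and maternal genes of the early embryo formed a list of 15, of which 12 had a count and 8 were DEGs lower in Day4, with none higher, and 4 of the 8 reached the minimum mean only through Undiff. The median log2 fold change was -5.26, or -7.64 with genes at 0 in a state set to their bound and genes at or under the floor in both states left out. Dppa5a, an RNA-binding KH-domain gene, had 40130 ± 1533 (SD, n = 2) normalized counts in Undiff, more than any member, and 139 ± 45.1 in Day4. Ooep and Khdc3, parts of the subcortical maternal complex of the oocyte, went from 1668 ± 35.9 to 4.39 ± 0.303 and from 1140 ± 121 to 1.67 ± 0.890. Tle6, of the same complex, fell from 377 ± 15.2 to 52.7 ± 17.02, whereas Nlrp5, also of it, had 1 fragment over the 4 libraries together.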
